A study of Mus musculus with 3 samples.

Results

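The 10 genes described here encode the enzymes that build fatty acids from citrate and join them into triglyceride: Acly, Acaca, Acacb, Fasn, Elovl6, Scd1, Scd2, Gpam, Dgat1 and Dgat2. They were found by gene symbol in a table of 39179 mouse genes, from a list of names drawn up with earlier results of these data known. All 10 were in the table and all 10 had enough counts to be tested, among 17587 tested genes. RNA bound to FTO, an RNA demethylase, was pulled down from white fat of C57BL/6 mice that carried a Flag-tagged FTO transgene, and was sequenced. The mice were 16 weeks old and had been fasted overnight. There were 2 libraries made with an anti-Flag M2 monoclonal antibody (Flag-IP 1 and Flag-IP 2) and 1 made with IgG (IgG-IP), an antibody with no intended target. The animals of the IgG control carried the transgene too, so the groups differ in antibody and not in genotype. The sources used here do not give the promoter that drives the transgene, the fat depot, the sex of the mice, or whether each library came from a separate animal or from pooled tissue. The p-values below rest on a spread between the 2 Flag-IP libraries that is shared between genes and may be technical. How closely the 2 libraries match for a given gene does not enter the p-value of that gene. The IgG-IP value has no replicate.

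Fat cells can make fatty acids from glucose. Citrate leaves the mitochondrion and is split to acetyl-CoA, acetyl-CoA is carboxylated to malonyl-CoA, and fatty acid synthase extends a chain with malonyl-CoA units until palmitate is released. Palmitate can then be elongated and desaturated, and acyl chains are placed on glycerol 3-phosphate in steps that end with triglyceride, the main store of white fat. Insulin and the transcription factors SREBP-1c and ChREBP raise the expression of this pathway after feeding, and fasting lowers it.

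Total counts per library were between 74176962 and 98227791. Counts per gene were low all the same: the median tested gene had 24 counts in Flag-IP 1, 26 in Flag-IP 2 and 25 in IgG-IP. TMM scaling factors, which correct for a few abundant RNAs taking up a library, were 0.840, 0.936 and 1.27 in the same order. A normalized count below is a count divided by the library's scaled size and brought to a common size. Transcripts of Fto itself had 230, 291 and 300 counts, with a log2 fold change of -0.08 ± 0.22 (SE). The immunoprecipitation acts on the protein, so this level does not check the antibody labels. All 3 libraries are bulk material, in which fewer cells of a type and less RNA per cell cannot be told apart.

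Setting Flag-IP against IgG-IP asks which RNAs were recovered with FTO above the background of a control antibody. Scd1, Dgat2 and Acacb were higher in Flag-IP at an adjusted p under 0.05 (edgeR's quasi-likelihood test, Benjamini-Hochberg over all tested genes). Thus 3 of the 10 enzymes were called higher, against 5.58% of all tested genes. None of the 10 was called lower, against 5.77% of all tested genes. At an unadjusted p under 0.05, 5 were higher and 0 lower in edgeR. The share of all tested genes at an unadjusted threshold was not computed, here or below. DESeq2 called 0 of the 10 enzymes. It gave no adjusted p for 9 of the 10, and 1 had an unadjusted p under 0.05 in that tool. In normalized counts, 8 enzymes lay above the IgG-IP library in both Flag-IP libraries, which 40.5% of tested genes did. Acaca lay below IgG-IP in both Flag-IP libraries, as 39.0% of tested genes did, and for Elovl6 the groups overlapped. The median log2 fold change of the 10 enzymes was 0.90, beside 0.03 for all tested genes, whose middle 50% ran from -0.54 to 0.66. Taken from single libraries, the enzymes' median came to 1.05 for Flag-IP 1 alone and 0.72 for Flag-IP 2 alone. Among 10177 tested protein-coding genes with a mean count in the same range as these enzymes, 6.12% were called higher.

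**Figure D1:**
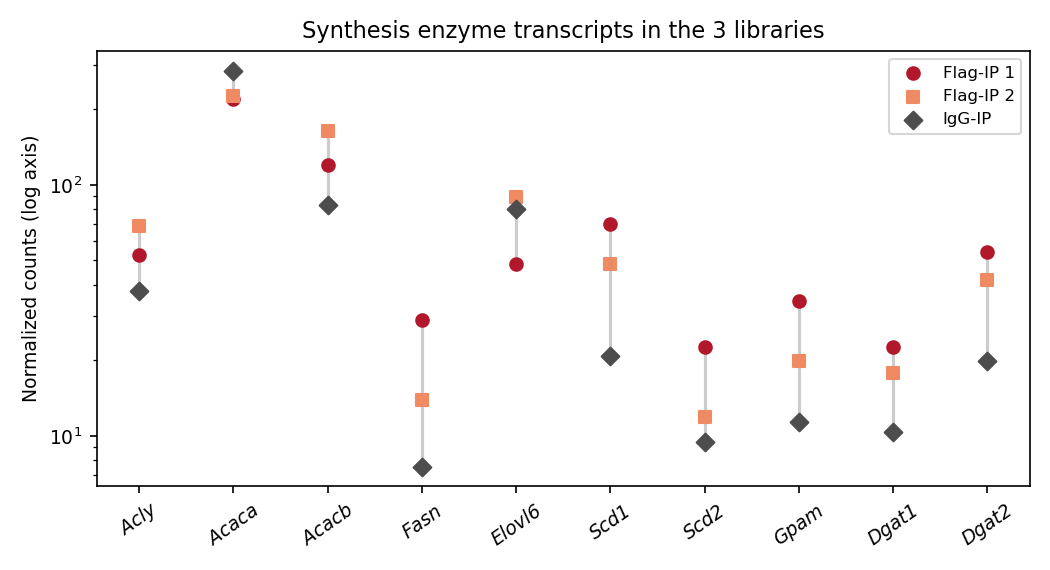
Normalized counts of the 10 synthesis enzymes on a log axis, in pathway order, with 1 point for each of the 3 libraries and a grey line spanning their range. Both Flag-IP points lie above the IgG-IP point for 8 genes, Acaca is the reverse, and the IgG-IP point of Elovl6 lies between its Flag-IP points.

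Scaling moved the size of these differences. Under TMM the summed normalized counts of the 10 enzymes were 674 and 701 in Flag-IP and 565 in IgG-IP. Scaled to the library total alone, as CPM, the sums were 6.37 and 7.39 in Flag-IP and 8.09 in IgG-IP, so the order of the groups was the opposite. These sums lean heavily on Acaca. It held 303 of the enzymes' 600 counts in IgG-IP, 205 of 626 in Flag-IP 1 and 229 of 708 in Flag-IP 2. Under total-count scaling the median log2 fold change of all tested genes was -0.48 and that of the enzymes was 0.38. The enzymes' median thus lay above that of all genes under both scalings. Under total-count scaling no enzyme was called higher, and Acaca was called lower (log2 fold change -0.87, adjusted p = 0.00648, edgeR). Of all 17587 tested genes, that scaling called 342 higher and 3008 lower.

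The pathway opens with ATP citrate lyase (Acly), the enzyme that splits cytosolic citrate to acetyl-CoA, encoded at chr11:100476353-100528000 (GRCm38, minus strand). Acly had 49 and 69 counts in Flag-IP and 40 in IgG-IP, or 52.8, 68.3 and 37.7 normalized counts. Both Flag-IP libraries were above IgG-IP, Flag-IP 2 by more than Flag-IP 1. Its log2 fold change was 0.69 ± 0.38 (SE) and did not pass the test (adjusted p = 0.244, edgeR).

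The acetyl-CoA carboxylases Acaca and Acacb make malonyl-CoA. Acaca encodes the cytosolic form, which feeds fatty acid synthase, and Acacb the form tied to the mitochondrial surface, whose malonyl-CoA restrains fatty acid import by carnitine palmitoyltransferase. Acaca (chr11:84129672-84401651, plus strand) had the most counts of the 10 genes, with 205 and 229 in Flag-IP and 303 in IgG-IP. Its normalized counts were 220.8, 226.8 and 285.4, close together in Flag-IP and higher in IgG-IP. The log2 fold change of Acaca was -0.35 ± 0.22 and did not pass the test (adjusted p = 0.340, edgeR). Acacb (chr5:114146535-114250761, plus strand) had 111 and 165 counts in Flag-IP and 88 in IgG-IP, or 119.5, 163.4 and 82.9 normalized counts. Both Flag-IP libraries were above IgG-IP, and the library Flag-IP 2 was the highest. Acacb was higher in Flag-IP by 0.77 ± 0.28 on the log2 scale (adjusted p = 0.0487, edgeR), a 1.71-fold difference. Its value was 0.98 without Flag-IP 1 and 0.53 without Flag-IP 2.

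These paralogs differ in copies elsewhere in the genome. Of the 31-base words in the Acaca transcript, 56.8% also occur in the processed pseudogene Gm5182, which has no row in the count table, while no 31-base word of Acacb occurs in another gene. The sources used here do not give how reads that match both were counted, so the Acaca counts are uncertain in that respect. Acaca also spans Gm11437 on the opposite strand, with 21, 23 and 13 counts and no shared exon.

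FTO removes N6-methyladenosine, which in messenger RNA lies in short motifs such as GGACT and is dense around the end of the coding sequence. The motif was therefore searched on the transcript strand of the coding sequences (stop codon left out), with no mismatch allowed. Acacb held 17 copies, or 2.31 per kb, against a median of 1.06 per kb over coding genes. Acaca held 7, Fasn 8, Acly 3, Gpam 1 and Dgat1 1. Scd1, Scd2, Elovl6 and Dgat2 held 0. Of the 3 enzymes called higher, Acacb was thus rich in the motif by this median, and Scd1 and Dgat2 had none in their coding sequences. Those make up 1065 of 4832 transcript bases in Scd1 and 1164 of 2262 in Dgat2, and the untranslated parts were not searched. Within the last 500 coding bases the motif occurred in Acly, Acaca, Acacb and Fasn, 4 of the 10, and in 42.6% of 18881 coding genes. For Acaca and Acacb the last copy whose printed window lies wholly in the coding sequence is shown. This pair was picked because it differed in the sign of its fold change while holding the motif at a like place. From the window's end to the end of the coding sequence there were 58 and 61 bases. The windows lie in the last exon of each gene, Acaca at chr11:84399562-84399622 (exon 56 of 56) and Acacb at chr5:114249496-114249556 (exon 53 of 53). Both are read 5′ to 3′ from GENCODE M21 transcripts in GRCm38, plus strand, with the motif in capitals:
Acaca: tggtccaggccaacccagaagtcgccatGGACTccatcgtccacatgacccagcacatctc
Acacb: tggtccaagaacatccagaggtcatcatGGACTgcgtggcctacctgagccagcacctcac
A match to 5 letters is a description of the sequence and does not show that a site is methylated or bound.

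Fatty acid synthase (Fasn, chr11:120805846-120824547, minus strand) carries out the repeated condensation steps that yield palmitate. It had 27 and 14 counts in Flag-IP and 8 in IgG-IP, or 29.1, 13.9 and 7.54 normalized counts. Both Flag-IP values were above IgG-IP, but Flag-IP 1 was 2.10 times Flag-IP 2. Its log2 fold change was 1.49 ± 0.72, close to that of Scd1, and did not pass the test (adjusted p = 0.178, edgeR). The IgG-IP count of 8 has an exact 95% Poisson interval of 3.45 to 15.8, which covers counting error only, so the fold change of Fasn rests on few reads.

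Elovl6 (chr3:129532355-129638495, plus strand) encodes the elongase that carries palmitate to stearate. Its counts were 45 and 90 in Flag-IP and 85 in IgG-IP, or 48.5, 89.1 and 80.1 normalized counts. The Flag-IP libraries lay on either side of IgG-IP, and Flag-IP 1 was 0.544 times Flag-IP 2. The log2 fold change of -0.21 ± 0.32 did not pass the test (adjusted p = 0.734, edgeR), with a 95% interval of -0.83 to 0.41. Its value was 0.15 without Flag-IP 1 and -0.72 without Flag-IP 2. In its exons Elovl6 overlaps 34 bases of the antisense gene Gm35986, which has no row in the count table. Of its 31-base words, 7.72% occur in other genes, mostly in the pseudogene Gm11295, which had 3, 2 and 0 counts.

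The stearoyl-CoA desaturases place a double bond in palmitate and stearate, and Scd1 is the main form in white fat and liver. Scd1 (chr19:44394455-44407879, minus strand) had 65 and 49 counts in Flag-IP and 22 in IgG-IP, or 70.0, 48.5 and 20.7 normalized counts. Both Flag-IP libraries were well above IgG-IP, whose count has an exact 95% Poisson interval of 13.8 to 33.3. Scd1 was higher in Flag-IP by 1.51 ± 0.42 on the log2 scale (adjusted p = 0.00792, edgeR), a 2.84-fold difference. The single-library log2 ratios were 1.66 for Flag-IP 1 and 1.15 for Flag-IP 2. Scd2 (chr19:44293674-44306864, plus strand), a close paralog on the same chromosome, had 21 and 12 counts in Flag-IP and 10 in IgG-IP, or 22.6, 11.9 and 9.42 normalized counts. Flag-IP 1 stood well above IgG-IP and Flag-IP 2 only just above it. The log2 fold change of Scd2 was 0.86 ± 0.75 and did not pass the test (adjusted p = 0.515, edgeR). Whether the fold changes of Scd1 and Scd2 differ from each other was not tested.

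Scd1 and Scd2 are similar enough for reads to match both. Their coding sequences of 1065 and 1074 bases were identical at 965 of 1064 aligned bases, or 90.7%. The longest identical stretch, 147 bases in capitals below, crosses the junction of exons 4 and 5 in both genes and is shown, with 20 bases on either side where the copies begin to differ, because a read inside it fits both:
Scd1: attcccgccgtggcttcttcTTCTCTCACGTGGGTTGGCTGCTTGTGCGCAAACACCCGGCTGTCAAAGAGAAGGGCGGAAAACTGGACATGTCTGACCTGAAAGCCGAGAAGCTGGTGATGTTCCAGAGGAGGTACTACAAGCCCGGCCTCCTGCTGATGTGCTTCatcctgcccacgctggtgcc
Scd2: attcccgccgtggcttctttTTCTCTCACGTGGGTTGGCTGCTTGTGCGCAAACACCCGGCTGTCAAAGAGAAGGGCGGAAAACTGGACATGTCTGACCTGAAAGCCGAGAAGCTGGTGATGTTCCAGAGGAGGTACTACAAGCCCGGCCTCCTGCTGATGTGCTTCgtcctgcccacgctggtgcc
The printed Scd1 window of 187 bases, flanks included, spans chr19:44400321-44401825 on the minus strand and that of Scd2 chr19:44299682-44301265 on the plus strand, with an intron in between, in GENCODE M21 transcripts of GRCm38. Over whole transcripts the shared part was small: 8.45% of the 31-base words of Scd1 and 6.86% of those of Scd2 occurred in any other gene. The paralog Scd3, which shares 5.91% of the words of Scd1, had 29, 24 and 21 counts. An exon of Scd2 also overlaps 61 bases of Mir5114, which had 0 counts in each library.

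Gpam (chr19:55067268-55127238, minus strand) encodes the mitochondrial acyltransferase that places the first acyl chain on glycerol 3-phosphate. It had 32 and 20 counts in Flag-IP and 12 in IgG-IP, or 34.5, 19.8 and 11.3 normalized counts. Both Flag-IP libraries were above IgG-IP, Flag-IP 1 by the larger margin. At 1.25 ± 0.61, the log2 fold change of Gpam missed the threshold (adjusted p = 0.178, edgeR).

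Dgat1 and Dgat2 encode unrelated enzymes of the endoplasmic reticulum that each add the last acyl chain to diglyceride. Dgat2 is the form linked to newly made fatty acids, and Dgat1 more to fatty acids taken up or recycled. Dgat2 (chr7:99153658-99182719, minus strand) had 50 and 42 counts in Flag-IP and 21 in IgG-IP, or 53.8, 41.6 and 19.8 normalized counts. The Flag-IP libraries were close to each other and both above IgG-IP. Dgat2 was higher in Flag-IP by 1.26 ± 0.45 on the log2 scale (adjusted p = 0.0489, edgeR), a 2.40-fold difference. Dgat1 (chr15:76502015-76511953, minus strand) had 21 and 18 counts in Flag-IP and 11 in IgG-IP, or 22.6, 17.8 and 10.4 normalized counts. Both Flag-IP libraries were above IgG-IP. The log2 fold change of Dgat1, 0.95 ± 0.68, did not pass the test (adjusted p = 0.409, edgeR), and its 95% interval of -0.39 to 2.29 includes the value of Dgat2.

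**Figure D2:**
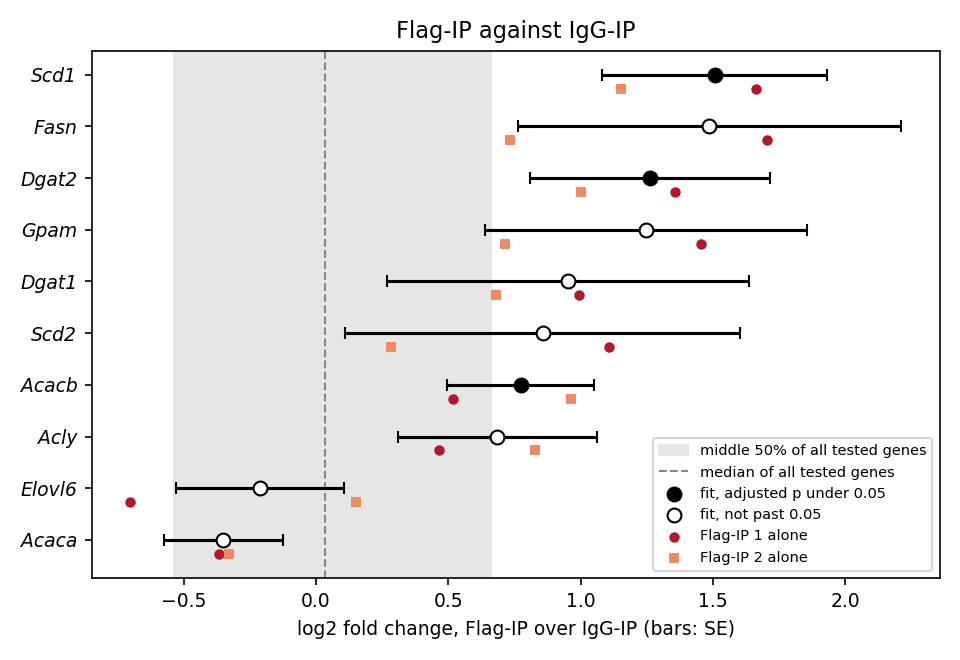
Log2 fold change of each enzyme, Flag-IP over IgG-IP, with bars for the standard error, filled points for an adjusted p under 0.05 and small symbols for each Flag-IP library alone. The 3 filled points are Scd1, Dgat2 and Acacb, and the grey band holds the middle 50% of all tested genes, from -0.54 to 0.66.

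The margin over IgG-IP differed between the Flag-IP libraries by gene. Normalized counts were higher in Flag-IP 1 than in Flag-IP 2 for Scd1, Fasn, Dgat2, Gpam, Dgat1 and Scd2, by 1.27 times for Dgat1 up to 2.10 times for Fasn. They were higher in Flag-IP 2 for Acacb, Acly, Elovl6 and Acaca, where Flag-IP 1 was 0.732, 0.772, 0.544 and 0.973 times Flag-IP 2. The 6 enzymes with the lowest mean counts were thus the ones higher in Flag-IP 1, and the 4 with the highest mean counts the ones higher in Flag-IP 2.

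**Figure D3:**
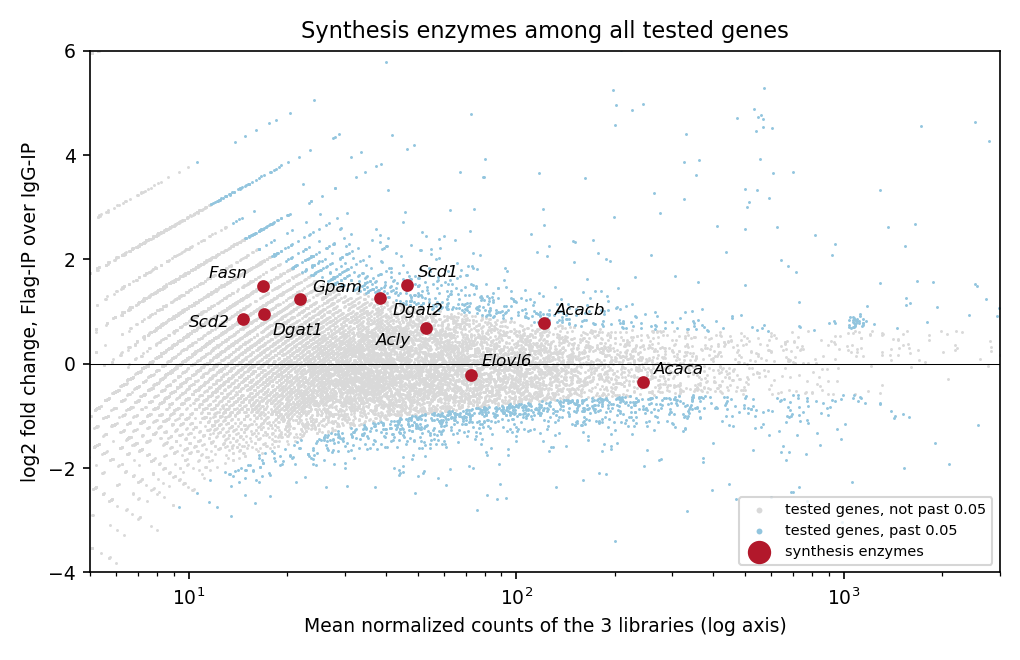
Log2 fold change, Flag-IP over IgG-IP, against the mean normalized count of the 3 libraries on a log axis, for the 10 enzymes in red and all tested genes inside the axes in grey or, past an adjusted p of 0.05, blue. Fasn, Gpam, Dgat1 and Scd2 lie at counts where grey points reach as high as they do, and Dgat2 and Acacb lie at the edge of the blue points. Scd1 lies further past the threshold (adjusted p = 0.00792, edgeR).

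Levels of different genes were compared per kilobase of exon. In Flag-IP the mean normalized counts per exonic kilobase were 15.5 for Dgat2, 14.7 for Acacb, 13.1 for Acaca, 12.1 for Scd1, 11.5 for Acly and 10.7 for Elovl6. The next levels on that scale were 6.62 for Dgat1, 4.07 for Gpam, 3.16 for Scd2 and 1.96 for Fasn. The Flag-IP libraries of neighbours in this order overlapped, apart from Elovl6 over Dgat1 and Dgat1 over Gpam. Among protein-coding genes with a count in any library, tested or not, the level of Dgat2 stood at the 86.3rd percentile and that of Fasn at the 22.0th. In IgG-IP the order of levels per exonic kilobase was led by Acaca at 16.7 and Elovl6 at 12.5, followed by Acacb at 8.61, Acly at 7.14, Dgat2 at 6.42 and Scd1 at 4.24. Fasn was again the lowest, at 0.688. Acaca and Elovl6, the genes that lead the IgG-IP order, have the longest spans of the 10, 272 kb and 106 kb.

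Fold changes in these libraries moved with the base composition of the transcript. Over 9084 protein-coding genes that averaged at least 20 counts, Spearman's rho between transcript GC content and log2 fold change was 0.63, a description across genes that share the same 3 libraries. The median GC content was 50.8% for the 10 enzymes and 49.2% for all tested genes. Dgat2 and Acacb had 56.3% and 56.7%, Dgat1 56.5% and Fasn 57.9%, while Scd1 had 47.1%, below the median. When the fit was given a loess offset on GC content, Scd1 was higher in Flag-IP by 1.66 on the log2 scale (adjusted p = 0.00936, edgeR). The values with this offset were 0.64 for Dgat2 (adjusted p = 0.565, edgeR) and 0.13 for Acacb (adjusted p = 0.907, edgeR), and that of Elovl6 was 0.16 (adjusted p = 0.902, edgeR). The median of the enzymes was 0.52 with this offset.

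**Figure D4:**
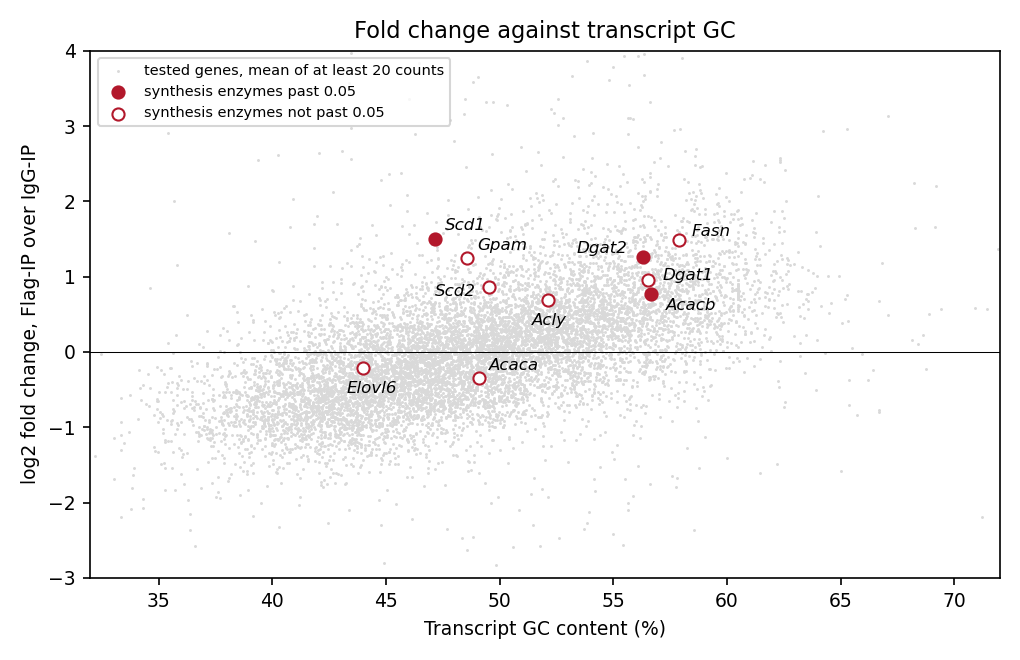
Log2 fold change, Flag-IP over IgG-IP, against transcript GC content in percent, for the 10 enzymes in red (filled past an adjusted p of 0.05) and in grey for tested genes averaging at least 20 counts, as far as they lie inside the axes. The grey points rise from left to right, Dgat2 and Acacb lie to the right at 56.3% and 56.7%, and Scd1 lies further left at 47.1% with a value of 1.51.

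Scd1 was called in 7 of 8 other settings that gave it an adjusted p, the exception being total-count scaling (log2 fold change 0.98, adjusted p = 0.130, edgeR). Acacb was called in 4 of 9 such settings and Dgat2 in 1 of 8. Both were close to the threshold, and RLE scaling, which left their fold changes at 0.76 for Acacb and 1.25 for Dgat2, gave adjusted p = 0.0515 and 0.0508 (edgeR). All 3 kept a positive value in each setting that gave one, between 0.98 and 1.75 for Scd1, 0.64 and 1.44 for Dgat2, and 0.13 and 0.98 for Acacb. Scd1 and Dgat2 had no value with a mean of at least 50 counts, a filter that left them out.

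**Figure D5:**
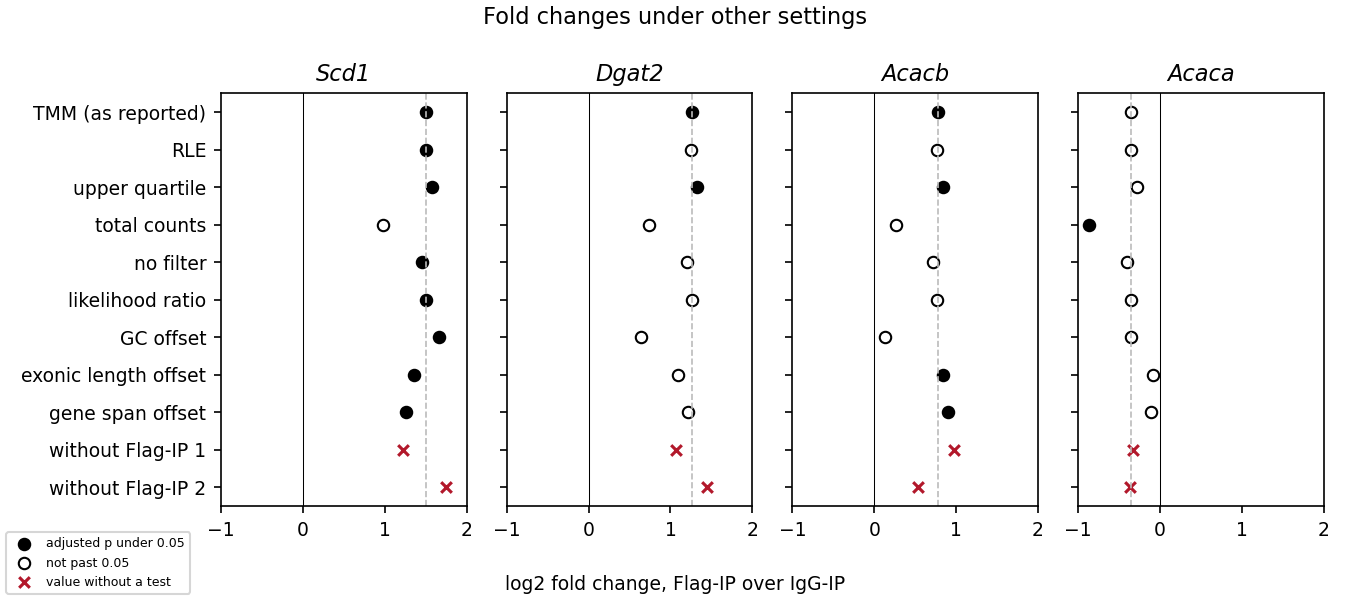
Log2 fold change of Scd1, Dgat2, Acacb and Acaca, Flag-IP over IgG-IP, under the reported fit and other settings, with filled points for an adjusted p under 0.05, open points above it and crosses for values without a test. Scd1 is filled in each tested setting shown except total counts, and Acaca is filled under total counts alone.

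Beyond the 10 enzymes, 70 other genes of the pathway were listed by role, of which 65 were tested. The test called 5 of these higher, against 5.58% of all tested genes, and 1 lower, against 5.77%, and 59 did not pass. The count of higher genes was thus near the background. Under total-count scaling the test called 1 higher and 8 lower, against 342 and 3008 of all 17587 tested genes. With the GC offset it called 3 higher and 2 lower, against 365 and 370 of all 17587 tested genes. Of the 6 genes named below as called, Cyb5a and Cyb5r3 still passed with that offset. At an unadjusted p under 0.05, 8 of the 65 were higher and 5 lower in the reported fit, with no share of all tested genes computed. The median log2 fold change was 0.19, beside 0.03 for all tested genes. In both Flag-IP libraries 32 of them lay above IgG-IP, as did 40.5% of all tested genes, and 19 below it, as did 39.0%, and 14 overlapped. The list as a whole thus lay nearer to all genes than the 10 enzymes did, though no test of that difference was run.

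Among genes that supply acetyl units and NADPH, 1 of 9 tested was called higher, against 5.58% of all tested genes. It was Aacs, which activates acetoacetate for lipid synthesis, with 95 and 96 counts in Flag-IP and 54 in IgG-IP (log2 fold change 0.95 ± 0.32, adjusted p = 0.0350, edgeR). The call was lost with the GC offset, where Aacs had a value of 0.29 (adjusted p = 0.766, edgeR), and under total-count scaling, where it had 0.43 (adjusted p = 0.448, edgeR). Malic enzyme Me1, an NADPH source, had 93, 83 and 93 counts, and the median of the group was -0.14. None of the 4 tested genes of malonyl-CoA control passed, nor did the 2 tested thioesterase or synthase partners, and at an unadjusted p under 0.05 the count was 0 in both by edgeR and by DESeq2. Their most abundant members were the AMP-activated kinase subunit Prkaa1 with 34, 58 and 44 counts and the thioesterase Olah with 17, 19 and 25.

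Of 10 tested elongation genes none passed in edgeR, although 1 was higher and 2 were lower at an unadjusted p under 0.05. DESeq2 called 0 but gave no adjusted p for 9 of the 10, and 0 had an unadjusted p under 0.05 in that tool. The elongase of polyunsaturated chains Elovl5 had 426 and 413 counts in Flag-IP and 329 in IgG-IP, with a log2 fold change of 0.48 ± 0.23 (adjusted p = 0.153, edgeR). The other desaturation genes lay above IgG-IP in both Flag-IP libraries in 7 of 7 cases, against 40.5% of all tested genes, with a median of 0.88. Of these 7, 2 were called higher, against 5.58% of all tested genes. These were the electron donors of the desaturases. Cytochrome b5 (Cyb5a, Cyb5 in the table) had 543 and 577 counts in Flag-IP and 321 in IgG-IP (log2 fold change 0.93 ± 0.23, adjusted p = 0.00168, edgeR), and a value of 0.42 under total-count scaling, where the call was lost (adjusted p = 0.243, edgeR). Cytochrome b5 reductase (Cyb5r3) had 130, 98 and 41 counts (log2 fold change 1.61 ± 0.33, adjusted p = 6.76e-05, edgeR). Cyb5r3 is in a list of lipid genes that the authors drew from these libraries, so its direction is not independent evidence.

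Of 14 genes between glycerol 3-phosphate and diglyceride, 2 were called higher, against 5.58% of all tested genes, and 1 lower, against 5.77%. The acyltransferase Agpat3 had 116, 83 and 56 counts (log2 fold change 0.97 ± 0.32, adjusted p = 0.0286, edgeR), with a value of 0.64 without Flag-IP 1 and 1.24 without Flag-IP 2. Agpat3 was no longer called with the GC offset (0.50, adjusted p = 0.502, edgeR) or under total-count scaling (0.44, adjusted p = 0.436, edgeR). The phosphatidate phosphatase Lpin3 had 28, 36 and 10 counts (log2 fold change 1.79 ± 0.59, adjusted p = 0.0292, edgeR). It too lost its call with the GC offset (1.16, adjusted p = 0.359, edgeR) and under total-count scaling (1.28, adjusted p = 0.143, edgeR). Lpin3 overlaps the antisense gene Gm16751 with 33, 41 and 49 counts, and without a stated strand setting their reads cannot be told apart. Agpat5, a further acyltransferase of this family, was lower, with 20 and 30 counts in Flag-IP and 63 in IgG-IP (log2 fold change -1.20 ± 0.41, adjusted p = 0.0332, edgeR). With the GC offset Agpat5 had a value of -0.75 and was not called (adjusted p = 0.391, edgeR).

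None of the 5 acyl-CoA synthetases passed, nor did the 2 monoglyceride acyltransferases, and none had an unadjusted p under 0.05 in edgeR or in DESeq2. The synthetase Acsl6 had 7111, 6438 and 6041 counts and its antisense neighbour Gm12224 had 7073, 6398 and 6019, so the gene that these reads come from cannot be told. Mogat1 had 25, 22 and 13 counts. None of the 12 transcriptional regulators passed in edgeR, with 1 higher and 1 lower at an unadjusted p under 0.05. DESeq2 gave no adjusted p for any of the 12, so it could call none, and 0 had an unadjusted p under 0.05 in that tool. Pparg, the master regulator of fat cells, had 68 and 117 counts in Flag-IP and 148 in IgG-IP (log2 fold change -0.55 ± 0.27, adjusted p = 0.175, edgeR), and Srebf1, which encodes SREBP-1c, had 31, 26 and 24.

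Markers of white fat cells were read beside the tissue label. None of the 12 was at 0 in all libraries, but the same held for each list of other cell types below, so it does not check the label. Their summed normalized counts were 5806 and 3876 in Flag-IP and 2926 in IgG-IP, most of it from Lpl and Aqp7. Without Aqp7 the sums were 3725 and 2261 in Flag-IP and 2741 in IgG-IP, so that Flag-IP 2 was below IgG-IP. Without Aqp7 and Lpl they were 378, 284 and 230. Their median log2 fold change was 1.38, and 3 of 11 tested were called higher, against 5.58% of all tested genes, and none lower: the glycerol channel Aqp7 (1932, 1631 and 196 counts) and the lipid droplet coats Plin1 (34, 59 and 12) and Plin4 (30, 34 and 4). Lipoprotein lipase (Lpl) had 3108, 1996 and 2666 counts and the droplet protein Cidec 117, 93 and 152, with no common direction. Adipokine transcripts that are abundant in fat were scarce: Adipoq had 18, 14 and 3 counts and Cfd 6, 4 and 7.

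Markers of other cell types were present too, and none of these genes was at 0 in all libraries. Summed normalized counts, in the order of libraries used above, were 408, 418 and 223 for brown or beige fat cells, mostly from Prdm16 (339, 384 and 214 counts, called higher). Ucp1, the defining brown fat gene, had 4, 4 and 2 counts. The sums were 233, 181 and 269 for macrophages, with Mrc1 at 85, 70 and 123 counts. They were 474, 535 and 475 for endothelial cells, with Flt1 at 153, 179 and 164 counts. For fibroblasts or preadipocytes they were 346, 255 and 268, with Col3a1 at 100, 90 and 92 counts. No gene of these last 3 lists passed the test in edgeR, and 1 fibroblast gene was higher at an unadjusted p under 0.05 in edgeR. DESeq2 called none, but it gave no adjusted p for 4 of 4 tested macrophage genes, 3 of 5 endothelial genes and 5 of 5 fibroblast genes. Skeletal muscle markers summed to 176, 86.2 and 121, with a median log2 fold change of 1.71, above that of the white fat markers. Of 4 tested, 2 were called higher, against 5.58% of all tested genes: Ckm (23, 19 and 4 counts) and Tnnt3 (39, 26 and 9). The test called 1 lower, Myl1 (50, 16 and 101 counts), against 5.77% of all tested genes. Hepatocyte markers summed to 25.8, 60.4 and 63.1, with Apob at 12, 38 and 40 counts. Mammary epithelial markers, of cells that can also make fatty acids, summed to 21.5, 28.7 and 8.48, with Krt8 at 8, 13 and 2 and Csn2 at 4 in each library. The part of any of these cells in the values of the 10 enzymes was not tested.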

How the data were processed

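RNA immunoprecipitated from white fat was sequenced on an Illumina HiSeq instrument in 2 Flag-IP libraries and 1 IgG-IP library, per the labels. Per the submitters' processing notes, CASAVA 1.7, Bowtie 0.12.2 and the mm8 build were used. The sources used here give neither the counting program nor its annotation or strand setting. The authors deposited raw counts per Ensembl gene, not normalized. They also deposited a list of lipid genes with the ratio of a Flag count to an IgG count, unscaled. No column was left unmatched to a library (0 columns).

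Genes were kept by filterByExpr with a minimum count of 10 and tested with edgeR's quasi-likelihood test (edgeR 4.0.16, limma 3.58.1, R 4.3.3), TMM scaling and Benjamini-Hochberg adjustment over all tested genes, with a threshold of 0.05. The fit had 1 residual degree of freedom and the prior degrees of freedom were finite for 0 genes. Standard errors and p-values therefore rest on a spread shared between genes. The common dispersion, set for the likelihood ratio test among the other settings, was 0.0359. Single-library log2 ratios used a prior count of 2. The code was checked on simulated counts that used the common dispersion, with changes set in genes averaging at least 20 counts. The fit called 15% of 100 genes changed 2-fold and 82% of 100 changed 4-fold, with 4 false calls among 101. In that simulation most 2-fold changes thus did not pass. Other settings were RLE, upper-quartile and total-count scaling, other filters, DESeq2 1.42.0, a likelihood ratio test, other prior counts, offsets on GC content and exonic length, and leaving out each Flag-IP library. An offset on gene span was chosen after seeing the data.

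Positions, exon lengths, transcript GC content (transcript with the longest coding sequence) and sequences come from GENCODE M21 (GRCm38), matched by identifier. No position is in mm8. Exonic length is the union of a gene's exons. The pathway list held 73 names for 70 genes, 4 of them matched by identifier because the table uses another symbol. The members and lists were chosen with earlier results of these data known, and they cover the roles and cell types named in the text. Named were all 10 enzymes, other pathway genes past the threshold and the most counted gene of each role, the 3 most counted white fat markers, the most counted marker of each other cell type, and genes with exons overlapping those of an enzyme. Fto, Scd3, Srebf1, Insig1, Plin1, Plin4, Adipoq, Cfd, Ucp1, Ckm, Tnnt3, Csn2 and the overlapping or similar genes were added after their values were seen.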

Additional observations from a re-analysis of the deposited data

How the results depend on the processing

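With 1 IgG-IP library and counts from 8 to 303 in it, the precision of every fold change is limited by counting and by the lack of a second control. No paired analysis was possible because the groups share a single replicate number. Where 3 of the 10 enzymes passed as reported, 1 passed under RLE scaling, no filter, the likelihood ratio test and the GC offset (Scd1), under total-count scaling (Acaca, lower) and with a mean of at least 50 counts (Acacb, of 4 enzymes tested). The enzymes' median of 0.90 was 0.38 under total-count scaling, 0.33 with a mean of at least 50 counts, 0.52 with the GC offset and 0.63 with a prior count of 10. It ranged from 0.83 to 1.19 when Flag-IP 1 or Flag-IP 2 was left out, with no residual degree of freedom and so no test. Elovl6 turned from -0.21 to 0.16 with the GC offset and to 0.15 without Flag-IP 1. Other pathway genes called were 6 (5 higher, 1 lower), 3 with no filter, 9 under total-count scaling (1 and 8), 5 with the GC offset (3 and 2) and 1 in DESeq2, where 61 of them had no adjusted p. Over all genes, 1996 were called (981 higher, 1015 lower). Total-count scaling gave 3350 (342 and 3008), DESeq2 276 (131 and 145, with 15684 genes lacking an adjusted p) and the GC offset 735 (365 and 370), and the gene-span offset gave 645 lower. The causes of these shifts were not tested.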

Other observations

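The authors' deposited table of lipid genes holds 31 distinct genes, and none of the 10 enzymes is among them. Of the 70 other pathway genes, 2 are listed, Cyb5r3 with a ratio of 2.39 and Insig1, a regulator of sterol sensing, with 2.75. Insig1 had 2 counts in Flag-IP 1, 11 in Flag-IP 2 and 4 in IgG-IP, so its Flag-IP libraries lay on either side of IgG-IP, and it did not pass the test (log2 fold change 0.79 ± 1.54, adjusted p = 0.802, edgeR). The 25 listed genes with an IgG count above 0 have ratios from 1.75 to 5, with a median of 2.33, in the authors' deposited table. The same unscaled division of the Flag-IP 2 count by the IgG-IP count, computed here for the enzymes, gave 2.23 for Scd1, 2.00 for Dgat2, 1.88 for Acacb and 1.75 for Fasn. These 4 were at or above the lowest listed ratio, and 0 reached the listed median. The quotient was 1.73 for Acly, 1.67 for Gpam, 1.64 for Dgat1, 1.20 for Scd2, 1.06 for Elovl6 and 0.756 for Acaca. The sources used here do not give how the authors chose the listed genes.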
